A study of Mus musculus with 12 samples.

Results

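The 10 genes described here are Erdr1, Ugt1a6a, Ugt1a6b, Pyy, Aoah, Sugct, Gpr137b-ps, Ofcc1, Ero1lb and Sfrp4, out of 24532 genes in the deposited table. They were chosen by their measured differences between germ-free (GF) and specific-pathogen-free (SPF) mice, seen with MC903 and again with ethanol, so these GF minus SPF values are given as a description, without a test. Expression was measured by bulk RNA sequencing of mouse ear skin in 4 groups of 3 libraries: GF MC903, SPF MC903, GF ethanol and SPF ethanol. MC903, or calcipotriol, acts on the vitamin D receptor and on mouse skin brings about an inflammation used as a model of atopic dermatitis, and ethanol is its vehicle. The labels give 5 applications for every group, in wording that does not settle over how many days. All groups carry the label C57BL/6 or a C57BL label ending in another number (7 for GF MC903 4, 8 for GF ethanol 5, 9 for GF MC903 5), and no label names a transgene, a deletion, an age or a sex. GF libraries are numbered 1, 4 and 5 and SPF libraries 1, 2 and 3 under each treatment. Whether libraries of the same number come from 1 mouse is not labelled. The labels do not state that each library is a mouse of its own, and a p-value here is set against the spread between libraries only. No label says whether GF and SPF mice came from 1 colony, and housing and colony cannot be told apart.

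Mice raised germ-free lack the bacteria, and so the bacterial lipids and metabolites, that reach the skin and gut of other mice. Several of the 10 genes act on small molecules or on bacterial products: Ugt1a6a and Ugt1a6b attach glucuronic acid to phenols, and Aoah removes fatty acids from bacterial lipopolysaccharide. Others make signals (Pyy and Sfrp4), fold secreted proteins (Ero1lb) or break down amino acids (Sugct), and Gpr137b-ps is a pseudogene copy of a lysosomal membrane protein gene. Ofcc1 and Erdr1 are less well described.

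All 10 genes passed the filter on low counts (edgeR's filterByExpr, minimum count 10), as did 16466 genes in all. In GF skin 3 of the 10 were higher than in SPF skin with both treatments (Ugt1a6b, Pyy and Sfrp4) and 7 were lower. For each of the 10 the 3 GF libraries and the 3 SPF libraries had separate ranges with MC903 and with ethanol. The contrasts that chose the genes favour such ranges, and the share of all tested genes with separate ranges was not measured. In bulk tissue, fewer cells of a type and less RNA per cell cannot be told apart. Beside this stand the calls over all genes at an adjusted p under 0.05 in edgeR's quasi-likelihood test. For GF minus SPF with MC903 they came to 41.7% of genes, 20.8% higher and 20.9% lower in GF skin. With ethanol they came to 22%, 11.6% higher and 10.3% lower. In the same direction with both treatments they came to 12.5% (2060 genes), 6.79% higher (1118) and 5.72% lower (942). Single libraries moved these counts: the 3616 genes called with ethanol became 1475 without GF ethanol 4, 2354 without SPF ethanol 2 and 2333 without SPF ethanol 3, and the 2060 became 949 without GF ethanol 4 and 1349 without SPF ethanol 3. Since the same contrasts chose the 10 genes, nothing is read from their count. Ordered by the smaller of its 2 log2 differences, Erdr1 ranked 1 of the 2060, Ugt1a6b 4, Ofcc1 5, Aoah 6, Sugct 7, Pyy 11, Gpr137b-ps 13, Ero1lb 40, Sfrp4 65 and Ugt1a6a 113. Library totals lay between 36358294 and 48225425 estimated counts. Levels are given as CPM (counts scaled to TMM-adjusted library totals) and, where genes are compared with each other, as FPKM, which is also per length of transcript. Per length, the highest mean in SPF skin was that of Erdr1 (203 FPKM with MC903 and 174 with ethanol), and in GF skin that of Ugt1a6b (28.7 FPKM with MC903 and 36.5 with ethanol). Ofcc1 was the lowest of the 10 in all 4 groups, from 0.00521 FPKM in GF MC903 skin to 0.39 FPKM in SPF ethanol skin.

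**Figure D1:**
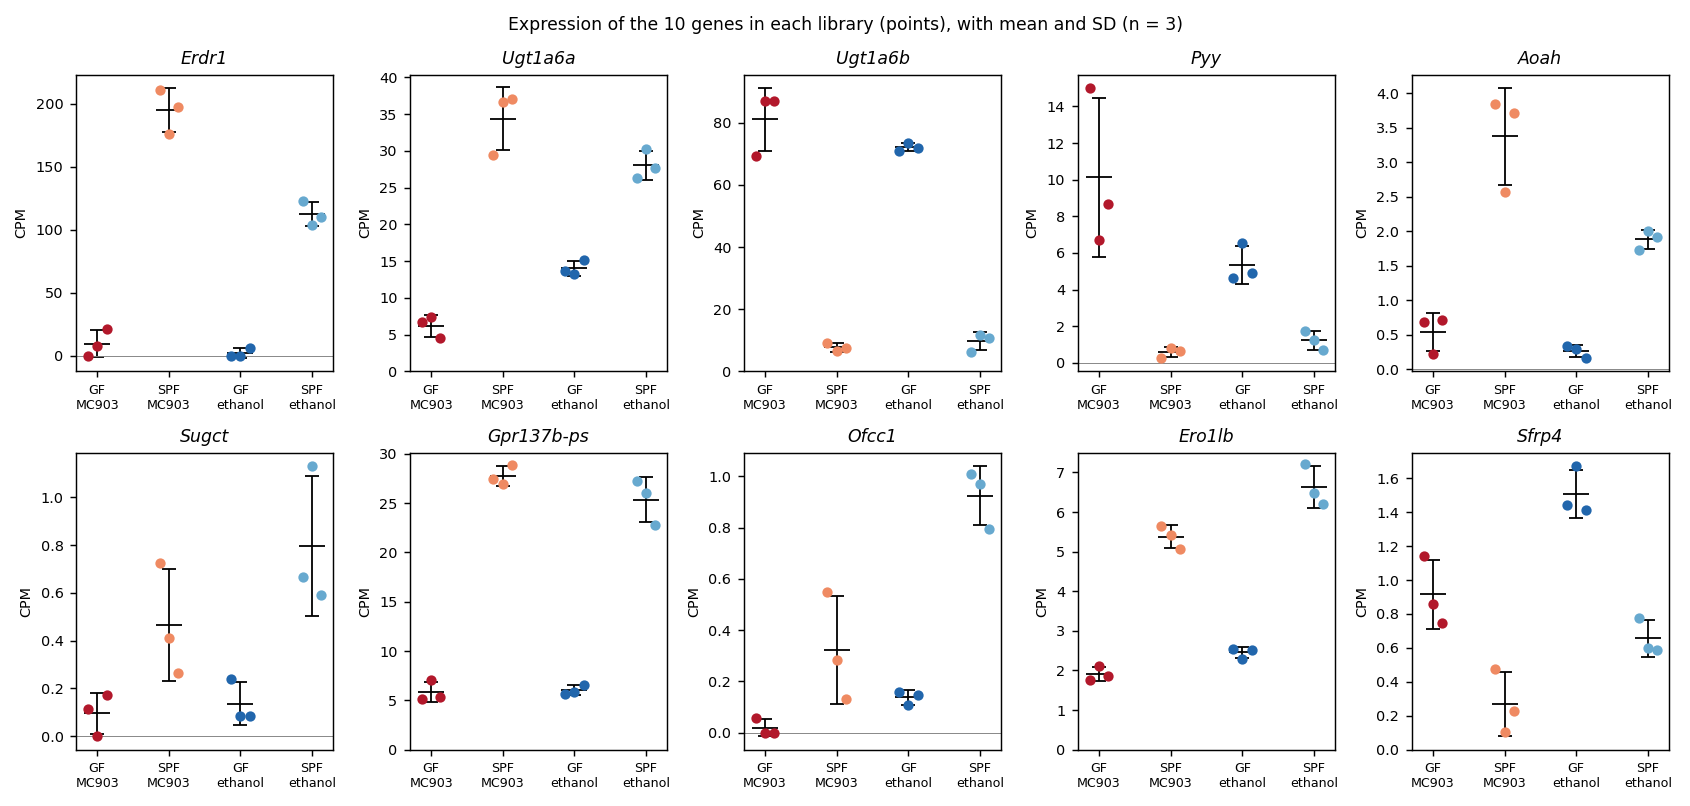
CPM of each of the 10 genes in the 12 libraries (points), with the mean and SD of each group of 3 (bars), on linear axes that differ between panels. GF and SPF libraries occupy separate ranges under each treatment in every panel, which the choice of genes favours. Ugt1a6b, Pyy and Sfrp4 are the panels with GF skin on top.

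The choice of genes did not use the MC903 response averaged over GF and SPF skin. Its contrast is orthogonal to both housing differences in this balanced design. The estimates are independent of the choice only where groups have a like spread. Genes with low counts in 1 housing do not. For Ofcc1 the SE of the response was 0.94 in GF and 0.47 in SPF skin. For Sugct it was 0.83 and 0.55, and for Erdr1 1.24 and 1.05. For Aoah it was 0.42 and 0.31, for Pyy 0.34 and 0.46, and for Sfrp4 0.34 and 0.41. The averaged responses of these genes, from Ofcc1 to Sfrp4, are thus not free of the choice. Of the 10 genes, 1 rose (Aoah), 4 fell (Ugt1a6a, Ofcc1, Ero1lb and Sfrp4) and 5 did not pass the test. Over all genes tested 79.7% were called, 37.1% higher (6107) and 42.6% lower (7016). The median response of the 10 genes was -0.20 on the log2 scale, against -0.10 over all genes tested. This comparison depends on scaling: TMM factors were 0.807 to 0.836 in MC903 libraries and 1.16 to 1.25 in ethanol libraries. On library totals alone the median gene shifted by -0.54, 3288 genes were higher and 10762 lower, and 0 of the 10 genes rose while 7 fell.

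Ugt1a6a and Ugt1a6b (gene IDs 94284 and 394435) are neighbouring first exons of the Ugt1a locus on chromosome 1 (GRCm38, 88134809 to 88220002 and 88103257 to 88218998). Each is spliced to the same later exons, so each protein joins its own substrate-binding part to a shared part that binds the sugar donor. Both enzymes glucuronidate small planar phenols, and Ugt1a6 is a known target of the aryl hydrocarbon receptor in liver. Their first exons hold 858 coding bases each, of which 26 differ (97% identical), and the longest identical run is 251 bases. The remaining 735 coding bases are the same genomic positions in both. The stretch of 90 bases with the most differences, 13, is shown because only reads that cross such bases tell the copies apart. Capitals mark the bases that differ (plus strand, chr1:88138744-88138833 for Ugt1a6a and chr1:88107212-88107301 for Ugt1a6b).
Ugt1a6a: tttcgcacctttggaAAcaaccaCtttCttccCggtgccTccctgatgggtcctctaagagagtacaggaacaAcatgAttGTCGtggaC
Ugt1a6b: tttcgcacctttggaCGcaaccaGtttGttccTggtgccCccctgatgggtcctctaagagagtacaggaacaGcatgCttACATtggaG

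Counts for this pair went opposite ways between housings. Ugt1a6b stood at 69.4, 87.1 and 86.9 CPM in GF MC903 libraries, against 9.29, 6.56 and 7.37 CPM in SPF MC903 libraries. With ethanol it stood at 71, 73.6 and 71.8 CPM in GF libraries, against 6.36, 11.8 and 10.9 CPM in SPF libraries. All 6 GF libraries lay above all 6 SPF libraries, by 10.5 times between the means with MC903 and 7.45 times with ethanol. Its MC903 response did not pass the test (log2 -0.08, SE 0.14, adjusted p = 0.61), and the MC903 and ethanol ranges overlapped within each housing.

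Ugt1a6a was lower in GF skin. It measured 6.67, 7.34 and 4.5 CPM in GF MC903 libraries and 29.4, 36.6 and 37.1 CPM in SPF MC903 libraries. With ethanol it measured 13.6, 13.3 and 15.1 CPM in GF libraries and 26.3, 30.2 and 27.7 CPM in SPF libraries. The GF mean was 0.179 times the SPF mean with MC903 and 0.499 times with ethanol. Averaged over housings Ugt1a6a fell with MC903 (log2 -0.45, SE 0.11, adjusted p = 0.0019). That average joins unlike values: the log2 response was -1.18 (SE 0.16) in GF skin, where the ranges were separate, and 0.29 (SE 0.15) in SPF skin, where they overlapped.

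Summed, the pair came to 87.3 ± 9.85 CPM in GF MC903 skin, against 42.1 ± 3.02 CPM in SPF MC903 skin (SD, n = 3 each). With ethanol the sum was 86.2 ± 1.38 CPM in GF skin and 37.8 ± 4.72 CPM in SPF skin. The sum thus put GF skin above SPF skin, with a log2 difference of 1.05 (SE 0.10) with MC903 and 1.19 (SE 0.10) with ethanol, whereas Ugt1a6a alone was lower in GF skin. The MC903 response of the sum was 0.09 (adjusted p = 0.27), so the fall of Ugt1a6a was not seen in the pair as a whole. The share assigned to Ugt1a6a was 7.16 ± 2% in GF MC903 skin and 81.4 ± 4.73% in SPF MC903 skin, and 16.3 ± 1.05% in GF ethanol skin and 74.8 ± 5.01% in SPF ethanol skin. How reads of the shared exons were divided between the copies is not given in the sources used here, and the sum was chosen after the data had been seen.

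**Figure D2:**
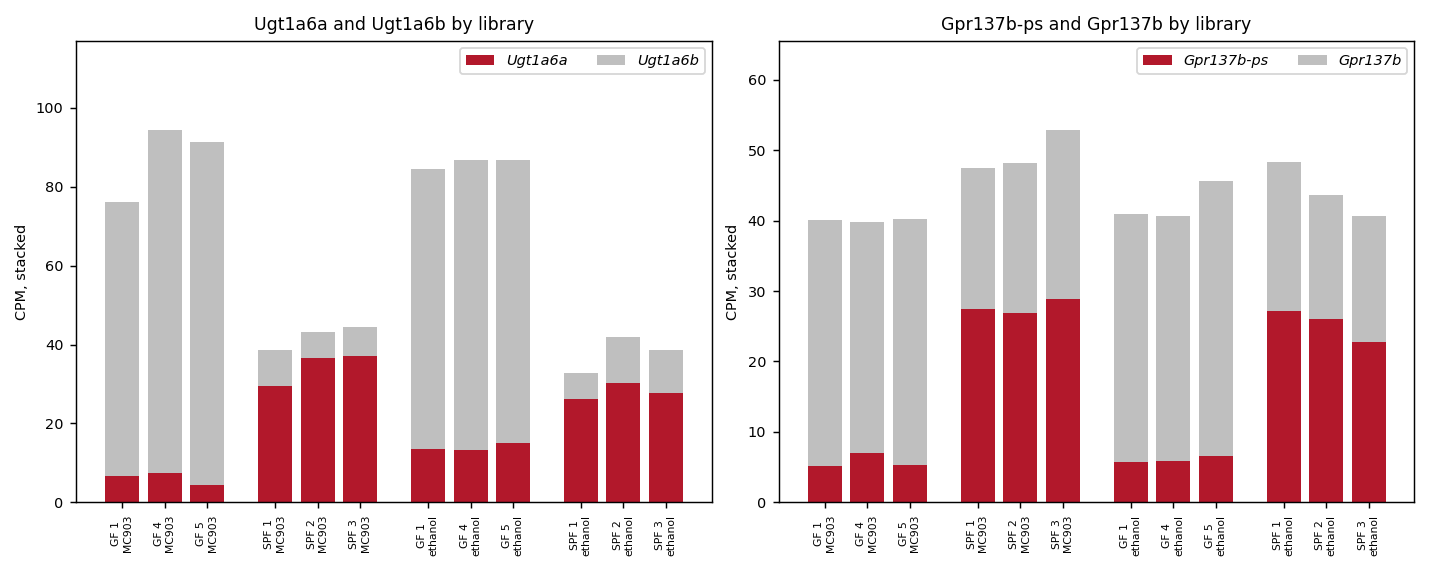
Stacked CPM of Ugt1a6a and Ugt1a6b (left) and of Gpr137b-ps and Gpr137b (right) in each library. GF bars on the left are taller than SPF bars and mostly Ugt1a6b, while bars on the right lie between 39.9 and 53 CPM with a smaller Gpr137b-ps part in GF skin.

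Of 6 further Ugt1a genes tested, which share the later exons, edgeR called 0 between housings in the same direction with both treatments, as did DESeq2, and at an unadjusted p under 0.05 there were also 0. With MC903 alone 1 was called higher and 1 lower in GF skin. Ugt1a7c was at 4.61 CPM in GF and 16.1 CPM in SPF MC903 skin, and Ugt1a1 at 21.5 and 13.6 CPM. In the average response Ugt1a1, which conjugates bilirubin, fell (log2 -2.21, adjusted p = 2.6e-10). Ugt1a2 rose (0.74, adjusted p = 0.0017), although on library totals its change was 0.19 (adjusted p = 0.3). Of 8 tested genes of the aryl hydrocarbon receptor pathway, 2 rose and 6 fell with MC903 (1 and 6 on library totals). Aldh3a1, an aldehyde dehydrogenase, fell by 2.38 on the log2 scale, the receptor Ahr itself by 1.92 and its repressor Ahrr by 1.80, while the receptor target Cyp1a2 was listed at 0 in all libraries. Tiparp, another target that limits the receptor, was called lower in GF skin with both treatments, with means of 29.3 and 69.6 CPM in GF and SPF MC903 skin and 20.9 and 30.4 CPM in GF and SPF ethanol skin.

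Pyy (ID 217212, chromosome 11, 102106676 to 102107832) encodes peptide YY, a hormone of gut endocrine cells that slows gut movement and reduces appetite. It was at 15, 6.73 and 8.65 CPM in GF MC903 libraries, against 0.275, 0.823 and 0.658 CPM in SPF MC903 libraries. With ethanol it was at 4.65, 6.53 and 4.89 CPM in GF libraries, against 1.73, 1.26 and 0.701 CPM in SPF libraries. The 6 GF libraries lay above the 6 SPF libraries, and the ratio of means was 17.3 with MC903 and 4.36 with ethanol. The averaged MC903 response was near 0 (log2 -0.08, SE 0.28, adjusted p = 0.8), with values of opposite sign in the housings, 0.92 (SE 0.34) in GF skin and -1.08 (SE 0.46) in SPF skin. Of 3 tested genes of the neuropeptide Y family, the receptor Npy1r fell (-1.75, adjusted p = 3.6e-07), and the peptidase Dpp4, which trims peptide YY, rose (1.12, adjusted p = 1.8e-08). The receptors Npy5r and Npy6r were listed at 0 in all libraries.

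Sfrp4 (ID 20379, chromosome 13, 19623175 to 19632825) encodes a secreted frizzled-related protein that binds Wnt ligands and blocks their signal. GF MC903 libraries had 1.14, 0.861 and 0.745 CPM and SPF MC903 libraries 0.474, 0.103 and 0.23 CPM. GF ethanol libraries had 1.44, 1.67 and 1.41 CPM and SPF ethanol libraries 0.779, 0.598 and 0.59 CPM. GF means were 3.4 times SPF means with MC903 and 2.3 times with ethanol, while GF MC903 and SPF ethanol overlapped. Sfrp4 fell with MC903 (log2 -0.99, SE 0.27, adjusted p = 0.0045), with log2 responses of -0.72 in GF skin and -1.26 in SPF skin. Of 10 other secreted Wnt inhibitors tested, 7 fell and 1 rose, with a median of -0.64. The largest falls were those of Sost (-2.63), the Wnt deacylase Notum (-1.16), and Dkk2 and Wif1 (-1.11 each). Sost was low, at 0.16 and 0.118 CPM in GF and SPF MC903 skin and 0.906 and 0.881 CPM in GF and SPF ethanol skin. On library totals all 10 fell. Sfrp1 was called lower in GF skin with both treatments (log2 -0.22 with MC903 and -0.25 with ethanol), opposite to Sfrp4.

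Aoah (ID 27052, chromosome 13, 20794103 to 21036617) encodes acyloxyacyl hydrolase, made by macrophages, dendritic cells and neutrophils, which strips acyl chains from the lipid A of lipopolysaccharide and so inactivates it. It reached 0.681, 0.222 and 0.716 CPM in GF MC903 libraries, against 3.84, 2.57 and 3.72 CPM in SPF MC903 libraries. With ethanol it reached 0.341, 0.296 and 0.168 CPM in GF libraries, against 1.73, 2 and 1.92 CPM in SPF libraries. No GF library reached the lowest SPF library, and GF means were 0.16 times SPF means with MC903 and 0.142 times with ethanol. Aoah rose with MC903 (log2 0.92, SE 0.26, adjusted p = 0.0056), with log2 responses of 0.99 in GF and 0.84 in SPF skin. On library totals the rise was 0.38 and did not pass (adjusted p = 0.19).

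Of 13 other genes of lipopolysaccharide recognition tested, edgeR and DESeq2 called 0 between housings in the same direction with both treatments, and at an unadjusted p under 0.05 there were also 0. In the comparison with MC903 alone, 1 was called higher and 2 lower in GF skin, and with ethanol alone 1 was called higher. With MC903 6 rose and 2 fell, among them the adaptor Myd88 (1.13, adjusted p = 1.1e-09) and the receptors Tlr4 (-0.91, adjusted p = 1.6e-05) and Cd180 (-1.49, adjusted p = 3.3e-04). On library totals 1 rose and 7 fell. Markers of cell types known to make Aoah are given beside it. The summed level of 10 macrophage and monocyte markers was 633 to 723 CPM in GF MC903 and 587 to 711 CPM in SPF MC903 libraries, and 521 to 561 CPM in GF ethanol and 425 to 509 CPM in SPF ethanol libraries. Of these markers 2 (C1qa and C1qb) were called higher in GF skin with both treatments and 0 lower (also 0 lower in DESeq2 and at an unadjusted p under 0.05). With MC903 alone 1 was called lower, and Itgam, an integrin of myeloid cells, was at 12.4 CPM in GF and 18.6 CPM in SPF skin. The 6 dendritic and Langerhans cell markers summed to 555 to 604 CPM in GF MC903 and 324 to 348 CPM in SPF MC903 libraries, and to 480 to 544 CPM in GF ethanol and 307 to 393 CPM in SPF ethanol libraries, with 3 called higher in GF skin with both treatments. Most of that sum was H2-Ab1 (443 and 231 CPM in GF and SPF MC903 skin), and Zbtb46, a factor of classical dendritic cells, was at 1.53 and 2.09 CPM. The 7 neutrophil markers summed to 84.3 to 145 CPM in GF MC903 and 69.5 to 73.1 CPM in SPF MC903 libraries, and to 15.9 to 20.1 CPM in GF ethanol and 12.8 to 17.2 CPM in SPF ethanol libraries. The part of these cell types in the housing difference of Aoah was not tested.

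Sugct (ID 192136, chromosome 13, 16857472 to 17694795) encodes a mitochondrial enzyme that activates glutarate, a product of lysine breakdown, to glutaryl-CoA. It was at 0.114, 0 and 0.172 CPM in GF MC903 libraries, against 0.724, 0.411 and 0.263 CPM in SPF MC903 libraries. With ethanol it was at 0.241, 0.0845 and 0.084 CPM in GF libraries, against 0.665, 1.13 and 0.59 CPM in SPF libraries. These are small counts, 10 in all in GF MC903 skin and 53 in SPF MC903 skin. The GF means were 0.204 times the SPF means with MC903 and 0.171 times with ethanol. The averaged MC903 response did not pass (log2 -0.63, SE 0.50, adjusted p = 0.26). Of 11 other tested genes of lysine and glutarate breakdown, 2 rose and 6 fell with MC903 (1 and 9 on library totals). Dhtkd1, which acts just before glutaryl-CoA, fell furthest (-2.98). It was low with MC903, at 0.264 and 0.293 CPM in GF and SPF skin, against 1.56 and 3.01 CPM with ethanol. Aass, the first enzyme of lysine breakdown, fell by 0.87 on the log2 scale. Etfb, an electron carrier subunit, rose (0.98). Etfb and the thiolase Acat1 were called higher in GF skin with both treatments, unlike Sugct.

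Ero1lb (ID 67475, chromosome 13, 12565818 to 12609533), also named Ero1b, encodes an oxidase of the endoplasmic reticulum that reoxidises protein disulfide isomerase, best known in insulin-making cells. GF MC903 libraries held 1.76, 2.11 and 1.86 CPM and SPF MC903 libraries 5.64, 5.42 and 5.07 CPM. GF ethanol libraries held 2.55, 2.3 and 2.52 CPM and SPF ethanol libraries 7.22, 6.47 and 6.2 CPM. The 4 group ranges did not overlap, in the order SPF ethanol, SPF MC903, GF ethanol, GF MC903. GF means were 0.355 times SPF means with MC903 and 0.37 times with ethanol. Ero1lb fell with MC903 (log2 -0.33, SE 0.09, adjusted p = 0.0041), with log2 responses of -0.36 in GF and -0.30 in SPF skin. Of 12 other genes of oxidative folding tested, 11 rose and 0 fell under TMM scaling, with a median of 1.08, as in DESeq2 and at an unadjusted p under 0.05, and 8 rose and 3 fell on library totals. The chaperone Hspa5 rose by 1.93, the disulfide isomerase P4hb by 1.62 and Pdia6 by 1.37. The peroxidase Gpx8 was called higher in GF skin with both treatments (0.33 with MC903 and 0.65 with ethanol).

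Gpr137b-ps (ID 664862, chromosome 13, 12614065 to 12650395) lies next to Ero1lb and is a transcribed pseudogene of Gpr137b, whose product is a membrane protein of lysosomes. The parent gene lies nearby (ID 83924, 13357620 to 13393644). Over 1156 aligned positions the pseudogene differs from the Gpr137b coding sequence at 6 (99.5% identical), with an identical run of 518 bases. The stretch of 90 bases within 1 exon that differs most has 2 differences, marked in capitals, and is shown for how little separates the copies (minus strand, chr13:12619793-12619882 for Gpr137b-ps and chr13:13363471-13363560 for Gpr137b).
Gpr137b-ps: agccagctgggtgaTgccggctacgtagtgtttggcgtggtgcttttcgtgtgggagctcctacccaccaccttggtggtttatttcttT
Gpr137b: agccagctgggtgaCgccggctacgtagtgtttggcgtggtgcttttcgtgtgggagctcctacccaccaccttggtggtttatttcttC

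The pseudogene had 5.17, 7.06 and 5.33 CPM in GF MC903 libraries, against 27.5, 26.9 and 28.9 CPM in SPF MC903 libraries. With ethanol it had 5.69, 5.81 and 6.59 CPM in GF libraries, against 27.2, 26 and 22.8 CPM in SPF libraries. Its GF means were 0.211 times SPF means with MC903 and 0.238 times with ethanol. Its MC903 response did not pass (log2 0.04, SE 0.08, adjusted p = 0.64), although on library totals it fell by 0.50 on the log2 scale (adjusted p = 1.3e-04). Gpr137b went the other way, with 34.9, 32.8 and 34.9 CPM in GF MC903 libraries and 20, 21.3 and 24 CPM in SPF MC903 libraries. With ethanol it had 35.2, 34.8 and 39.1 CPM in GF libraries and 21.1, 17.7 and 17.9 CPM in SPF libraries. Of 3 tested genes of the GPR137 family it was the one called between housings with both treatments. Summed, the copies came to 40.1 ± 0.17 CPM in GF MC903 skin and 49.5 ± 2.97 CPM in SPF MC903 skin, and to 42.4 ± 2.86 CPM in GF ethanol skin and 44.2 ± 3.77 CPM in SPF ethanol skin (SD, n = 3 each). The GF minus SPF difference of the sum was -0.31 (SE 0.08) on the log2 scale with MC903 and -0.06 (SE 0.08) with ethanol, against -2.24 and -2.07 for Gpr137b-ps alone. The pseudogene's share of the sum was 14.6 ± 2.68% in GF MC903 and 56.1 ± 1.63% in SPF MC903 skin, and 14.2 ± 0.262% in GF ethanol and 57.3 ± 1.95% in SPF ethanol skin. How reads were assigned to these near-identical copies was not tested.

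Ofcc1 (ID 218165, chromosome 13, 40001882 to 40288011) is named after a human orofacial cleft locus. It was at 0.0568, 0 and 0 CPM in GF MC903 libraries, against 0.549, 0.283 and 0.132 CPM in SPF MC903 libraries. With ethanol it was at 0.16, 0.106 and 0.147 CPM in GF libraries, against 1.01, 0.969 and 0.793 CPM in SPF libraries. With MC903 the 3 GF libraries held 2 counts together and the 3 SPF libraries 37, a scaled ratio of 0.0557 with a 95% exact interval of 0.0065 to 0.216, which covers counting error only. With ethanol the ratio of the means was 0.149. Ofcc1 fell with MC903 (log2 -2.08, SE 0.52, adjusted p = 0.0025), and the MC903 and ethanol ranges were separate within each housing. Only the SPF ethanol group (53, 47 and 43 counts) had all its libraries above the minimum of the low-count filter. Ofcc1 thus entered the test through an ethanol group, which favours a fall with MC903 in advance.

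Erdr1 (ID 170942, X chromosome, 170010526 to 170018797, a transcribed pseudogene in the RefSeq table) is named for a role in erythroid differentiation and lies at the end of the X chromosome, near the pseudoautosomal boundary. It was at 0.0284, 8.17 and 21.2 CPM in GF MC903 libraries, against 211, 176 and 197 CPM in SPF MC903 libraries. With ethanol it was at 0.02, 0 and 6.59 CPM in GF libraries, against 123, 104 and 110 CPM in SPF libraries. The GF libraries numbered 1 held 1 count each and those numbered 5 held 739 with MC903 and 314 with ethanol, whereas SPF libraries were within 176 to 211 CPM with MC903 and 104 to 123 CPM with ethanol. The GF ethanol mean of 2.2 ± 3.8 CPM (SD, n = 3) rests on library 5. GF means were 0.0503 times SPF means with MC903 and 0.0196 times with ethanol. Within SPF skin the MC903 and ethanol ranges were separate under TMM scaling, with means of 195 and 113 CPM, but overlapped on library totals. The fitted log2 response in SPF skin was 0.79 (SE 1.05). The averaged MC903 response was 1.47 on the log2 scale (SE 0.81) and did not pass (adjusted p = 0.11). It passed without GF ethanol 5 (5.16, adjusted p = 0.0019) and without GF MC903 1 (1.76, adjusted p = 0.031), and also with all 12 libraries in a fit with the library number as a replicate block (1.86, SE 0.46, adjusted p = 0.0058).

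Mid1, a ubiquitin ligase gene that crosses the boundary and ends 19.7 kb before Erdr1, was looked at after its values were seen. It had 32.2, 39.3 and 76 CPM in GF MC903 libraries and 17.1, 16.5 and 44.7 CPM in SPF MC903 libraries. With ethanol it had 36.3, 46.3 and 109 CPM in GF libraries and 12.3, 23.1 and 35.7 CPM in SPF libraries. It was highest in GF libraries 5 and, within SPF skin, in libraries 3, under both treatments, and was not called in either housing comparison. Xist, the RNA of the inactive X chromosome, was at 229 to 249 CPM in MC903 libraries and 318 to 736 CPM in ethanol libraries, and the Y-linked Ddx3y was at 0 in all 12. Both were also chosen after their values were seen, and they show the pattern of female tissue in every library.

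**Figure D3:**
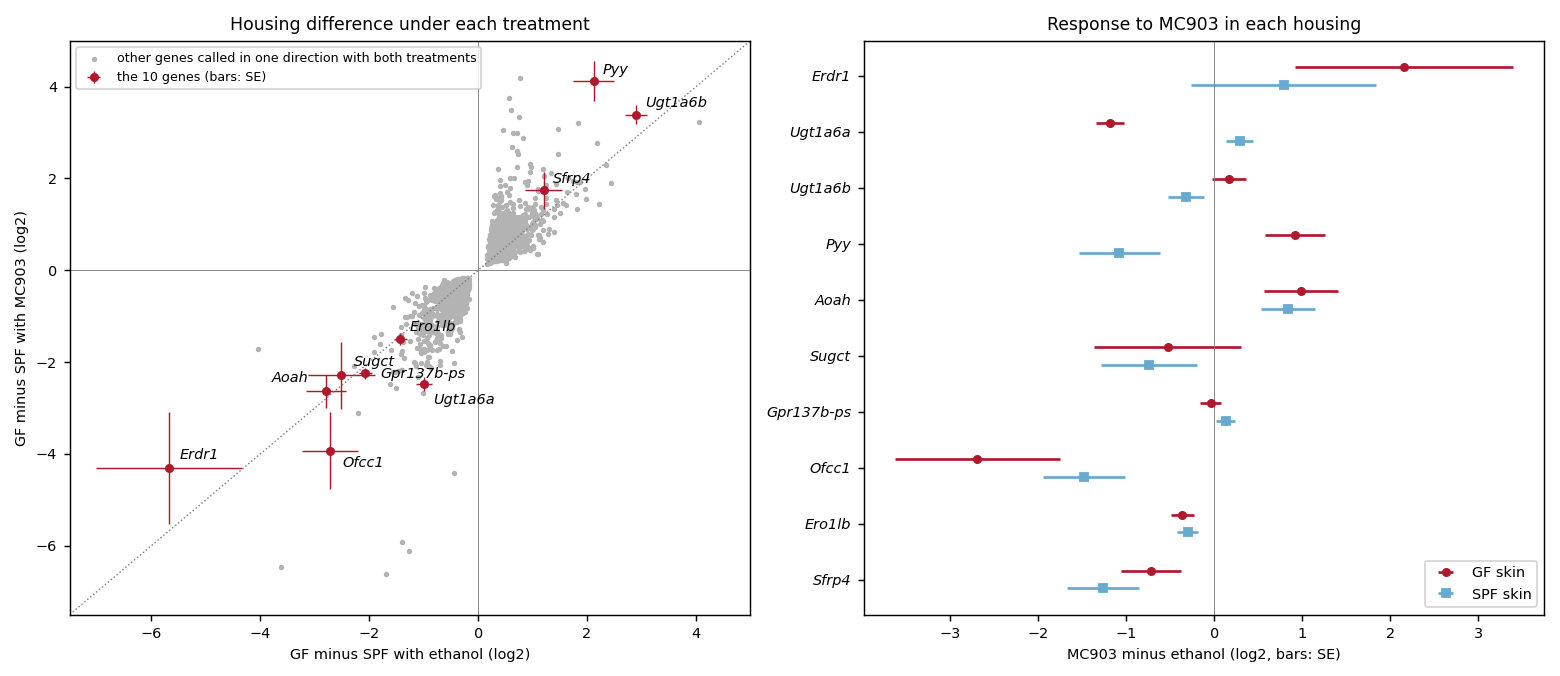
Left, log2 GF minus SPF difference with ethanol (x axis) and with MC903 (y axis) for the 10 genes (red, bars are SE) and for other genes called in the same direction with both treatments (grey). Right, log2 MC903 minus ethanol response of each gene in GF (red) and SPF (blue) skin with its SE; the signs differ for Ugt1a6a, Ugt1a6b, Pyy and Gpr137b-ps, and for Ugt1a6b and Gpr137b-ps all values lie between -0.32 and 0.17.

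Set side by side, the housing differences were of like size with both treatments for Aoah (log2 -2.64 with MC903 and -2.79 with ethanol), Sugct (-2.29 and -2.51), Gpr137b-ps (-2.24 and -2.07) and Ero1lb (-1.49 and -1.43). The fitted values of others lay further apart. Pyy stood at 4.12 (SE 0.43) and 2.12 (SE 0.38), and Ugt1a6b at 3.39 (SE 0.21) and 2.90 (SE 0.20). Ofcc1 stood at -3.93 (SE 0.84) and -2.72 (SE 0.51), and Sfrp4 at 1.74 (SE 0.41) and 1.20 (SE 0.34). Erdr1 had the largest SEs, at -4.31 (SE 1.22) and -5.68 (SE 1.34). For Ugt1a6a the GF mean was 0.179 times the SPF mean with MC903 and 0.499 times with ethanol. These differences between treatments were not tested, since they are made of the contrasts that chose the genes.

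By position, 6 of the 10 genes lie on chromosome 13: Ero1lb, Gpr137b-ps, Sugct, Sfrp4, Aoah and Ofcc1, within 27.7 Mb. Position was not used to choose them. Over the chromosome as a whole, 74 of 616 tested genes (12%) were called between housings in the same direction with both treatments, and 11.1% with the 6 left out. Other chromosomes ran from 9.58% (chromosome 3) to 15.2% (chromosome 19), so chromosome 13 was within their range. For genes that differed by at least 2-fold with both treatments (0.711% of genes tested, 117 in all), chromosome 13 held 10 of 616 (1.62%), but 6 of those 10 are the members, which were chosen by these values. With them left out it held 4 of 610 (0.656%). All 4 are histone genes inside the span from Ero1lb to Ofcc1. Hist1h2bq was higher in GF skin, and Hist1h2bm, Hist1h2bg and Hist1h2bc were lower. Hist1h2bm was low, at 0.131 and 0.438 CPM in GF and SPF MC903 skin and 0 and 0.0458 CPM with ethanol. With calls of any size, 3 of the 154 tested genes in the span that are not among the 10 were higher and 11 lower in GF skin. Together these are 9.09%.

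The calls inside the span were not even. In the 5 Mb window from 10 to 15 Mb, which holds Ero1lb and Gpr137b-ps, 7 of 20 tested genes were called (35%), rank 4 among 439 windows with at least 10 tested genes. Without those members it was 5 of 18 (27.8%, rank 9). The 5 were Gpr137b (log2 GF minus SPF 0.65 with MC903 and 0.94 with ethanol) and 4 genes lower in GF skin. Of these Gng4, a G protein subunit, stood at -0.85 with MC903 and -0.97 with ethanol, and Lyst, a regulator of lysosomal traffic, at -0.66 and -0.72. Nid1, which encodes the basement membrane protein nidogen, stood at -0.37 and -0.65, and Heatr1, a factor of ribosome assembly, at -0.27 and -0.32. The window with the highest share was the start of chromosome 4 (5 of 13, 38.5%), with Impad1, Penk, Plag1, Sdr16c5 and Sdr16c6. Among the 10 nearest tested genes of Sfrp4, called genes were Vps41, Elmo1 and Aoah. Those of Aoah were Sfrp4 and Elmo1, that of Sugct was Vps41 and that of Ofcc1 was Tmem14c. Away from chromosome 13, Pyy had Mpp2, Ugt1a6a and Ugt1a6b had each other, and Erdr1 had 0 of 5 in edgeR, in DESeq2 and at an unadjusted p under 0.05.

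**Figure D4:**
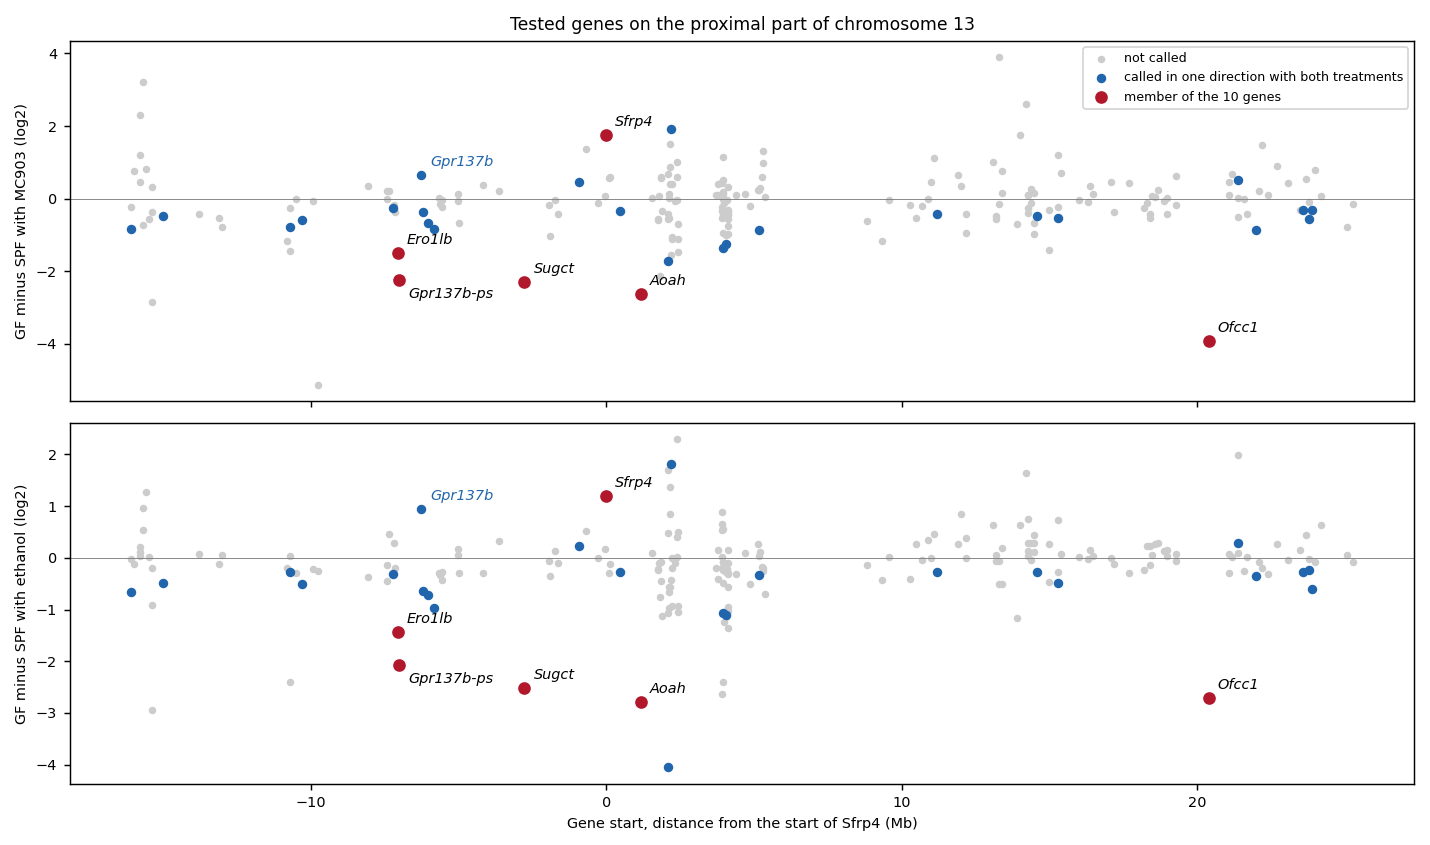
Log2 GF minus SPF difference with MC903 (top) and with ethanol (bottom) of tested genes on the proximal part of chromosome 13, against the distance of each gene's start from that of Sfrp4 in Mb. Members are red and other genes called in the same direction with both treatments are blue. Of the 6 members on the chromosome, 5 lie below 0 and Sfrp4 above 0 in both panels.

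Nnt, part of which is deleted in the C57BL/6J substrain, was examined because of the strain labels. It had 17.1, 4.53 and 5.41 CPM in GF MC903 libraries and 14, 14.8 and 14.3 CPM in SPF MC903 libraries. With ethanol it had 30.2, 30.6 and 30.1 CPM in GF libraries and 20.1, 24.2 and 25.9 CPM in SPF libraries. GF MC903 4 and 5, which carry strain labels ending in 7 and 9, were the lowest of the 12, while GF ethanol 5, whose label ends in 8, was not low. The part of substrain in the housing differences was not tested.

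Likeness to other genes was measured as Pearson's r of log2 CPM over the 12 libraries after the mean of each treatment was taken off, as a description. Since GF and SPF libraries of these genes had separate ranges, the points form 2 clusters by housing, and likeness within a housing was not measured. The closest gene to Ugt1a6b was the tetraspanin Tspan7 (r = 0.99), to Ugt1a6a the actin regulator Wasl (0.99), to Pyy the matrix gene Tnxb (0.99) and to Sfrp4 the interferon-induced Mx2 (0.97), followed by the clock output factor Dbp (0.96). Hist1h2bc, a histone gene also on chromosome 13 and one of several near-identical copies, was the closest to both Gpr137b-ps (0.99) and Ero1lb (0.98). D430042O09Rik was the closest to both Aoah (0.98) and Sugct (0.97). For Ofcc1 it was Asb1 (0.98) and for Erdr1 Sbf1 (0.96). Among the 10 themselves, Gpr137b-ps and Ero1lb had an r of 0.996, and Ugt1a6a and Ugt1a6b one of -0.921.

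Levels of some cell type markers also differed with housing. Among neutrophil, T and NK, adipocyte, sebaceous, endothelium and Schwann cell markers, edgeR called 0 in the same direction with both treatments. Several were called with a single treatment. In DESeq2 and at an unadjusted p under 0.05 the only such call with both treatments was 1 sebaceous marker, lower in GF skin. All 4 skeletal muscle markers were called higher in GF skin with both treatments, and their sum was 743 to 803 CPM in GF MC903 and 447 to 493 CPM in SPF MC903 libraries, and 1182 to 1281 CPM in GF ethanol and 707 to 822 CPM in SPF ethanol libraries. Of 6 fibroblast markers 1 (Col3a1) was called lower in GF skin with both treatments, and their sum was 4770 to 6043 CPM in GF MC903 and 5134 to 6553 CPM in SPF MC903 libraries, and 7920 to 9610 CPM in GF ethanol and 9935 to 11385 CPM in SPF ethanol libraries. Of 3 cartilage markers tested 1 (Comp) was called higher in GF skin with both treatments (log2 1.08 with MC903 and 1.19 with ethanol). The 6 keratinocyte markers differed in direction with MC903, where 2 were called higher and 2 lower in GF skin. Of them Krt5 was called higher in GF skin with both treatments (log2 0.89 with MC903 and 0.40 with ethanol). Krt10 was at 20791 and 8707 CPM in GF and SPF MC903 skin, and Krt1 at 6211 and 11641 CPM. The 6 summed to 62412 to 65185 CPM in GF MC903 and 49715 to 60929 CPM in SPF MC903 libraries, and to 27035 to 31518 CPM in GF ethanol and 23426 to 25694 CPM in SPF ethanol libraries. Their part in the differences of the 10 genes was not tested.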

How the data were processed

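Per the labels' protocols, RNA from fibrous tissue kits was made into TruSeq libraries and sequenced on a HiSeq4000. Tools named in the submitters' processing notes are HISAT2 2.1.0, StringTie 1.3.4d, bcl2fastq 2.20.0 and Trimmomatic, and the build is mm10. The sources used here do not give the annotation, strand use or handling of multi-mapped reads. Per the file headers, each library has 1 deposited column of estimated counts per gene and 1 of FPKM values. The deposited counts are whole numbers and were used as they are. Every test was edgeR's quasi-likelihood test (edgeR 4.0.16, R 4.3.3) in 1 fit of 12 libraries (4 group coefficients, TMM scaling), with filterByExpr (minimum count 10, minimum total 15), and Benjamini-Hochberg adjustment over 16466 genes at 0.05. Only the test of the average response was checked on simulated counts, which had 1 dispersion for all genes and no housing difference. The GF minus SPF calls were not checked in this way. RLE factors, library totals, no filter, DESeq2 1.42.0, limma voom (limma 3.58.1), a replicate block and leaving out each library were the alternatives, and summing copies was added after the data had been seen. FPKM served only to compare levels between genes.

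The 10 genes, the gene lists and the markers were chosen with earlier results of these data known. Besides the 10, the rule names the 3 genes most alike (the closest is given), called genes among the 5 nearest on each side, called genes of the window with the highest share, Nnt, and in each list up to 3 genes with the largest response past the threshold and those called between housings with both treatments. Mid1, Xist and Ddx3y are outside this rule and are marked where they are named as chosen after their values were seen. Also outside it, and not marked where they are named, are Ugt1a7c, Zbtb46, Krt10, Hist1h2bq and Hist1h2bm. The same holds for Cyp1a2, Npy5r and Npy6r, which were listed at 0 in all libraries. Replicates of each group differed by more than sampling noise (chi-square per degree of freedom 17.5 to 44.7), so each library counts as 1. Coordinates are from RefSeq GRCm38.p6 (24462 genes matched by identifier), the build of mm10, and sequences from the GRCm38 genome with GENCODE M21 transcripts.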

Additional observations from a re-analysis of the deposited data

Results flagged for a closer look

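Ugt1a6a and Pyy had MC903 responses of opposite sign in the housings. For Ugt1a6a the log2 response was -1.18 in GF skin, where all 3 MC903 libraries lay below the ethanol mean, and 0.29 in SPF skin, where all 3 lay above it. For Pyy it was 0.92 in GF skin, where all 3 MC903 libraries lay above the ethanol mean, and -1.08 in SPF skin, where all 3 lay below it. These differences between housings were not tested, because the contrasts that chose the genes fix them. Groups of 3 libraries are too small for a test of single outlying samples.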

How the results depend on the processing

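Under RLE factors, no filter, DESeq2 and limma voom the averaged responses of the 10 genes kept their direction and their side of the threshold, except that DESeq2 gave Erdr1 no adjusted p. On library totals Gpr137b-ps went to -0.50, Ugt1a6b (-0.62, adjusted p = 9.2e-04) and Sugct (-1.17, adjusted p = 0.043) passed, Aoah (0.38) did not, 0 of the 10 genes rose and 7 fell, and 3288 genes were higher and 10762 lower. Over all genes, same-numbered libraries had an r of their deviations of -0.0225 to 0.14. It was not over 0.1 in every pair, so the main fit has no block. Such an r does not settle whether same-numbered libraries come from 1 mouse. Erdr1 and Mid1 were both highest in GF libraries 5 under both treatments. With a replicate block Erdr1 passed (1.86, adjusted p = 0.0058), so that 2 of the 10 rose. With copies summed, an alternative added after the data had been seen, Ugt1a6a went to 0.09 in the averaged response, 1.19 with ethanol and 1.05 with MC903. Leaving out 1 library at a time gave 1 to 2 of the 10 higher (2 without GF MC903 1 or GF ethanol 5) and 4 lower each time, 5994 to 6161 genes higher and 6787 to 6973 lower. It gave 1475 (without GF ethanol 4) to 3981 genes called between housings with ethanol, with 2354 without SPF ethanol 2 and 2333 without SPF ethanol 3. With both treatments it gave 949 (without GF ethanol 4) to 2313 genes, with 1349 without SPF ethanol 3, and 7 to 10 of the 10 genes. The causes were not tested. Fitted differences of genes near 0 counts depended on single libraries: Erdr1 with ethanol was -13.06 without GF ethanol 5 (-9.79 in limma voom), Ofcc1 with MC903 -6.86 without GF MC903 1, Sugct with ethanol -3.19 without GF ethanol 1 and Sfrp4 with MC903 2.49 without SPF MC903 1. With MC903 the counts per group were as low as 2 in GF skin (Ofcc1) and 30 in SPF skin (Sfrp4).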
